A study of Mus musculus with 36 samples.

Results

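Female mouse embryonic stem cells with a mutated SPOC domain of Spen gained H2AK119ub1 on one allele of the X chromosome both 24 h and 3 h after Xist was switched on, and the 2 gains are compared here window by window. The comparison rests on 8 of the 36 libraries of the series, chosen by their labels as the H2AK119ub1 libraries of SPOC mutant clones. The 4 libraries of the 24 h series are clones E7 and H1, each with and without doxycycline, and the 4 of the 3 h series are clones C11 and H1, each with and without doxycycline. Clone H1 is the only clone present at both times. The other H2AK119ub1 libraries, 8 of Spen clones that lack the RNA recognition motifs and 8 of wild type (WT) cells, are used for reference.

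All cells are hybrids of the 129S and Castaneus strains. On the 129S X chromosome the Xist promoter was exchanged for a doxycycline-driven TetOn promoter, so Xist is induced from one known allele, and the uninduced cells carry this promoter as well. Doxycycline was given to induced cells at 1 µg/mL, for 24 h or for 3 h, and uninduced cells received none. Every mutant line is a single clone, the cells had been grown on fibroblast feeders that were removed by pre-plating, and the protein made by the mutant Spen gene was not measured here. The signal comes from native chromatin immunoprecipitation followed by sequencing, given per 250 kb window of chromosome X for all reads and for the reads of genome 1 and of genome 2. Which strain is genome 1 is not given in the sources used here. The cell type could not be checked against markers, since the files hold chromatin signal only.

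Xist is a long noncoding RNA that coats the chromosome it is made from and silences it. The coated chromosome gains H2AK119ub1, a single ubiquitin on histone H2A placed by Polycomb repressive complex 1, whose noncanonical form is brought to Xist through hnRNPK and the Xist B and C repeat region. Spen is a large RNA-binding protein that binds the Xist A repeat through its RNA recognition motifs and silences genes through its SPOC domain, which contacts corepressors of the NCoR/SMRT and histone deacetylase family.

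The states of the 24 h SPOC libraries need a caution that touches every 24 h value below. In these 4 libraries the file names and the titles give opposite doxycycline states, whereas in no other library of the series do they differ. The states are taken from the file names here. The titles turn each 24 h change round, so that 285 windows would be lower after induction. In the other H2AK119ub1 libraries, genome 2 held 48.7% to 54.9% of the allelic signal when uninduced and 58.8% to 73.9% when induced. By title, the 24 h SPOC libraries would have 65.0% to 65.4% uninduced and 51.2% to 51.6% induced, and by file name the reverse. The 24 h series was also prepared apart from the 3 h series, with Drosophila cells added, and its SPOC lines were handled on an occasion of their own. Time, series and occasion therefore cannot be told apart in a difference between 24 h and 3 h.

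Over the part of the chromosome up to Xist, which is all that the allelic signal covers, the balance of the mark shifted to genome 2 at both times. Genome 2 held 65.4% of the allelic signal in the induced 24 h library of clone E7 and 65.0% in that of H1, against 51.6% and 51.2% in their uninduced libraries. It held 68.8% in the induced 3 h library of clone C11 and 68.0% in that of H1, against 54.9% and 54.1% in their uninduced libraries. Induced and uninduced libraries did not overlap at either time. The induced and the uninduced libraries of the 3 h series both lay above those of the 24 h series in the same state, so the 3 h clones also started from a less even balance. The 4 input libraries of the 24 h clones, which show the balance of the DNA itself, lay between 50.9% and 51.5%, and the 3 h series has no input among the files used here. The mean share was 65.2% ± 0.283 induced and 51.4% ± 0.283 uninduced at 24 h, and 68.4% ± 0.566 induced and 54.5% ± 0.566 uninduced at 3 h (SD, n = 2 clones each).

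**Figure D1:**
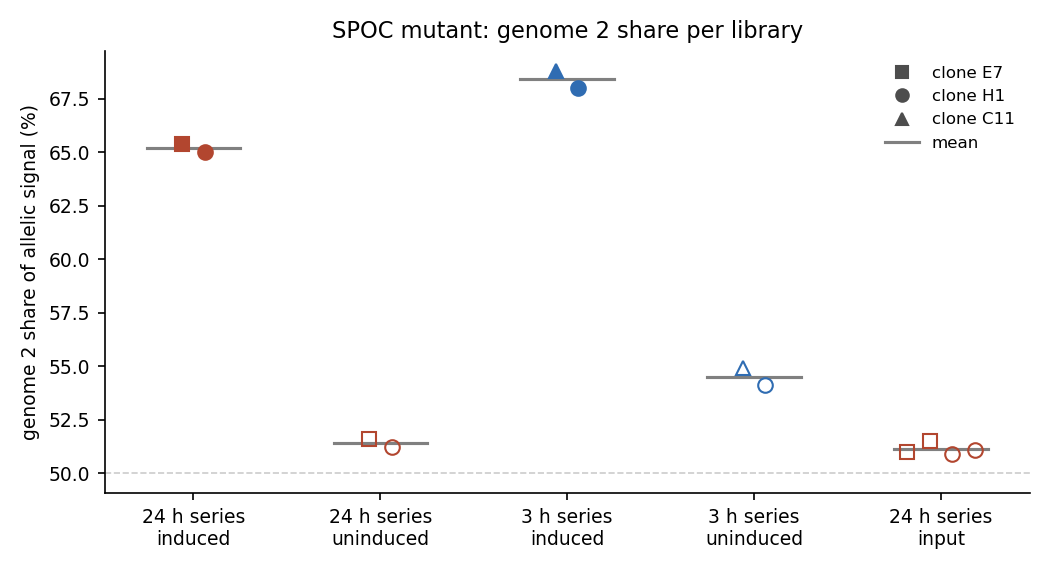
Share of the allelic H2AK119ub1 signal that fell on genome 2 (y axis, percent), 1 point per SPOC library, with shapes for clones, filled points for induced and open points for uninduced or input libraries, and lines at group means. The axis does not start at 0. The induced libraries lie at 65.0% to 65.4% in the 24 h series and at 68.0% to 68.8% in the 3 h series, above their uninduced libraries at 51.2% to 51.6% and at 54.1% to 54.9%.

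The change of a window is the log2 ratio of genome 2 over genome 1 in the induced library minus that in the uninduced library of the same clone, over the 353 windows in which the mean of neither allele was under 10% of the median window. The median change was 0.71 in E7 and 0.69 in H1 at 24 h, against 0.76 in C11 and 0.69 in H1 at 3 h. In clone H1, measured at both times, the median rise was 1.61-fold at each time. The mean of the medians was 0.70 ± 0.011 at 24 h and 0.72 ± 0.051 at 3 h (SD, n = 2 each), and the difference of -0.024 was within the spread between clones (two-sided exact permutation test p = 1, where 2 against 2 clones cannot give less than 0.333). The change was above 0 in 344 and 339 windows at 24 h and in 337 and 339 windows at 3 h. In bulk chromatin, a larger share of cells with the mark and more mark per cell cannot be told apart.

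Most of the change lay on genome 2. The median window of genome 2 changed by 0.78 in E7 and 0.69 in H1 at 24 h, against 0.83 in C11 and 0.81 in H1 at 3 h. The median window of genome 1 changed by 0.057 and 0.015 at 24 h, against 0.083 and 0.16 at 3 h. These single-allele values depend on the scaling of the deposited signal, whose factor is not stated, whereas the ratio does not.

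Most windows gained the mark at each time, so the windows called overlapped widely between the times. In a limma fit of all 24 H2AK119ub1 libraries with Benjamini-Hochberg adjustment at 0.05, 285 of 353 windows (80.7%) were higher after induction at 24 h and 268 (75.9%) at 3 h, and none was lower at either time. A set of 249 windows passed at both times, and 49 passed at neither. The 249 are 87.4% of the windows called at 24 h, while 75.9% of all windows were called at 3 h. They are 92.9% of the windows called at 3 h, while 80.7% of all windows were called at 24 h. The 24 h minus 3 h difference of the changes passed in 0 of 353 windows (0%), with 11 windows at an unadjusted p under 0.05. The replicates are clones with 1 library per state, so the p-values measure the spread between these libraries, which may be partly technical.

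The windows that changed most included several of the same genes. Msn encodes moesin, a linker of membrane and actin, and its window changed by 1.5 in E7 and 1.76 in H1 at 24 h, against 1.39 in C11 and 1.61 in H1 at 3 h. Eda encodes ectodysplasin A, a ligand of the TNF family, and its window changed by 1.71 and 1.52 at 24 h, against 1.53 and 1.70 at 3 h. The clones of the 2 times overlapped in both windows. Fthl17a, a ferritin heavy chain-like gene of the germline, averaged 1.61 at 24 h and 1.56 at 3 h. The window of Tsga8, a testis gene, had the largest 24 h change, with 1.65 in E7 and 1.87 in H1, against 1.55 in each of the 3 h clones, and the window of Klhl15, Fam90a1b and Apoo changed by 1.58 at 24 h and 1.53 at 3 h. At 3 h the largest changes were 1.81 in a window without protein-coding genes from position 84750001, 1.79 in the window of Hdac8 and 1.65 in that of Phka1, Gm9112 and Dmrtc1b. Hdac8 is a histone deacetylase and Phka1 a subunit of phosphorylase kinase, and at 24 h their windows changed by 1.39 and 1.33. The adjusted p-values of all these changes were between 3.91e-20 and 8.24e-12 (limma). The fit gave each of these changes the same standard error of 0.18, a spread pooled over windows that share their libraries. In a limma fit of the 8 SPOC libraries alone, the adjusted p-value of the Tsga8 window at 24 h was 1.61e-08. The size of such p-values therefore depends on the libraries fitted.

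The last allelic window, in which Xist lies, was not among the largest changes. It holds the protein-coding genes Cdx4, Chic1 and Tsx, and it changed by 0.60 in E7 and 0.88 in H1 at 24 h, against 0.61 in C11 and 0.50 in H1 at 3 h. The adjoining window, which holds Nap1l2 and Pabpc1l2a, changed by 0.88 and 1.29 at 24 h, against 1.26 and 1.15 at 3 h.

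The gain was spread more evenly along the chromosome at 24 h than at 3 h. Within 10 Mb of Xist, the mean change of the 40 windows was 1.10 in E7 and 1.18 in H1 at 24 h, against 1.26 in C11 and 1.25 in H1 at 3 h. Beyond 75 Mb, the mean change of the 81 windows was 0.48 in E7 and 0.46 in H1 at 24 h, against 0.32 in C11 and 0.30 in H1 at 3 h. Both 24 h clones thus lay below both 3 h clones near Xist and above both far from it. The classes between ran in order, with means of 0.85 at 24 h and 1.00 at 3 h from 10 to 25 Mb, 0.78 and 0.85 from 25 to 50 Mb, and 0.59 and 0.48 from 50 to 75 Mb. In the far class, 53 of 81 windows were called higher at 24 h (65.4%) and 29 at 3 h (35.8%), whereas within 10 Mb all 40 were called at each time. The background over all windows was 80.7% at 24 h and 75.9% at 3 h.

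**Figure D2:**
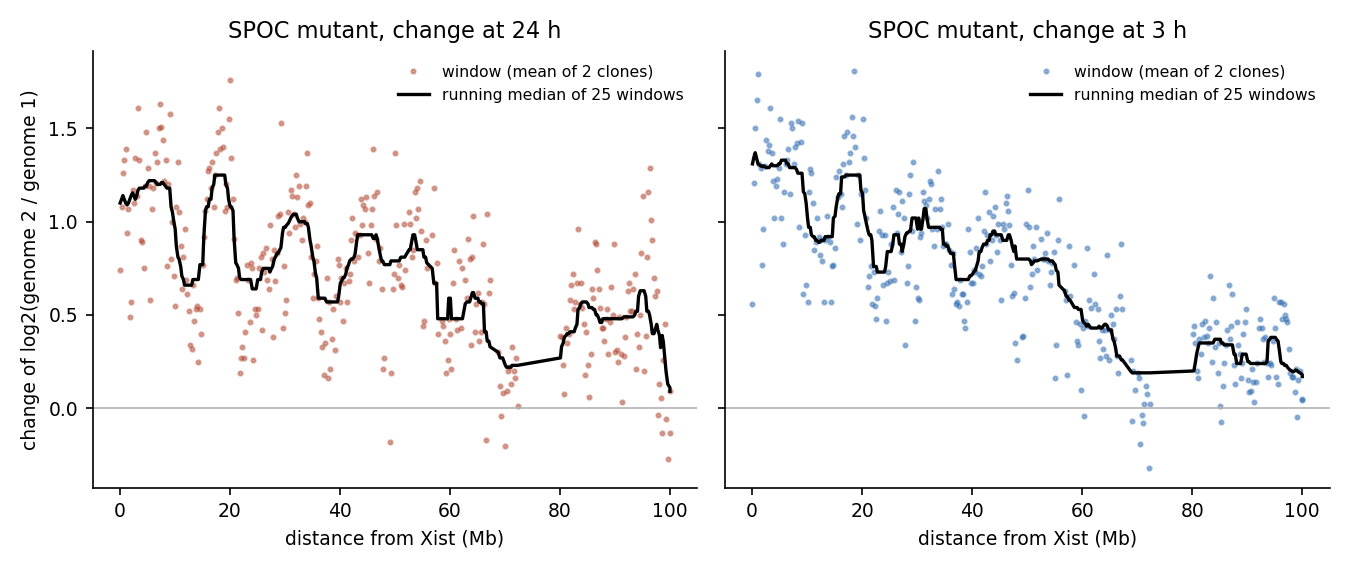
Change of the log2 ratio of genome 2 over genome 1 on induction (y axis) against the distance of each of the 353 windows from Xist in Mb (x axis), at 24 h on the left and at 3 h on the right. Points are means of 2 clones and the line is a running median. Beyond 75 Mb the windows average 0.47 at 24 h and 0.31 at 3 h, and within 10 Mb they average 1.14 and 1.25.

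Spearman's rho between change and distance over the 353 windows was -0.49 in E7 and -0.52 in H1 at 24 h, against -0.77 in each of the 3 h clones. This describes each library pair, since windows of a pair share their libraries. The mean rho was -0.50 ± 0.019 at 24 h and -0.77 ± 0.0044 at 3 h (SD, n = 2 each), a difference of 0.27 that separated the clones completely. The change within 10 Mb minus that beyond 75 Mb was 0.67 ± 0.074 at 24 h and 0.94 ± 0.0084 at 3 h (SD, n = 2 each). For both measures the two-sided exact permutation p was 0.333, the smallest that 2 against 2 clones allow, and 0.4 after adjustment over the 6 measures of size and shape that were compared.

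In the nearest and farthest classes, the difference between times had the same sign in the other genotypes, but not in every class between. The mean change near and far was 1.23 and 0.77 in WT at 24 h (n = 3), against 1.72 and 0.54 at 3 h (n = 1). It was 0.80 and 0.34 in the Spen clones at 24 h, against 0.97 and 0.18 at 3 h (n = 2 each). From 10 to 25 Mb the Spen clones went the other way from SPOC, with 1.09 at 24 h and 0.71 at 3 h. They also did so from 25 to 50 Mb, with 0.87 and 0.59. From 50 to 75 Mb, where SPOC was higher at 24 h, WT had 0.84 at 24 h and 0.87 at 3 h. The mean rho with distance was -0.36 at 24 h and -0.71 at 3 h in WT, and -0.48 and -0.70 in the Spen clones. Whether the slope moved by a different amount in the SPOC clones was not tested.

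The spread along the chromosome was seen in the induced libraries themselves, and the uninduced libraries also differed between the series. Within 10 Mb of Xist the mean log2 ratio of the induced libraries was 1.24 in E7 and 1.29 in H1 in the 24 h series, against 1.82 in C11 and 1.70 in H1 in the 3 h series. In the same windows the uninduced libraries had 0.14 and 0.11 in the 24 h series, against 0.56 and 0.45 in the 3 h series. Beyond 75 Mb the induced libraries had 0.53 and 0.49 in the 24 h series, against 0.36 and 0.37 in the 3 h series, and the uninduced libraries 0.049 and 0.025 against 0.038 and 0.071. As shares, genome 2 held 70.1% and 71.1% of the induced signal within 10 Mb in the 24 h series, against 78.8% and 77.9% in the 3 h series, and 60.6% and 60.1% beyond 75 Mb, against 57.1% and 57.3%. The uninduced 3 h libraries thus already carried an excess of genome 2 signal near Xist, which the change subtracts; its part in the difference between times was not tested.

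**Figure D3:**
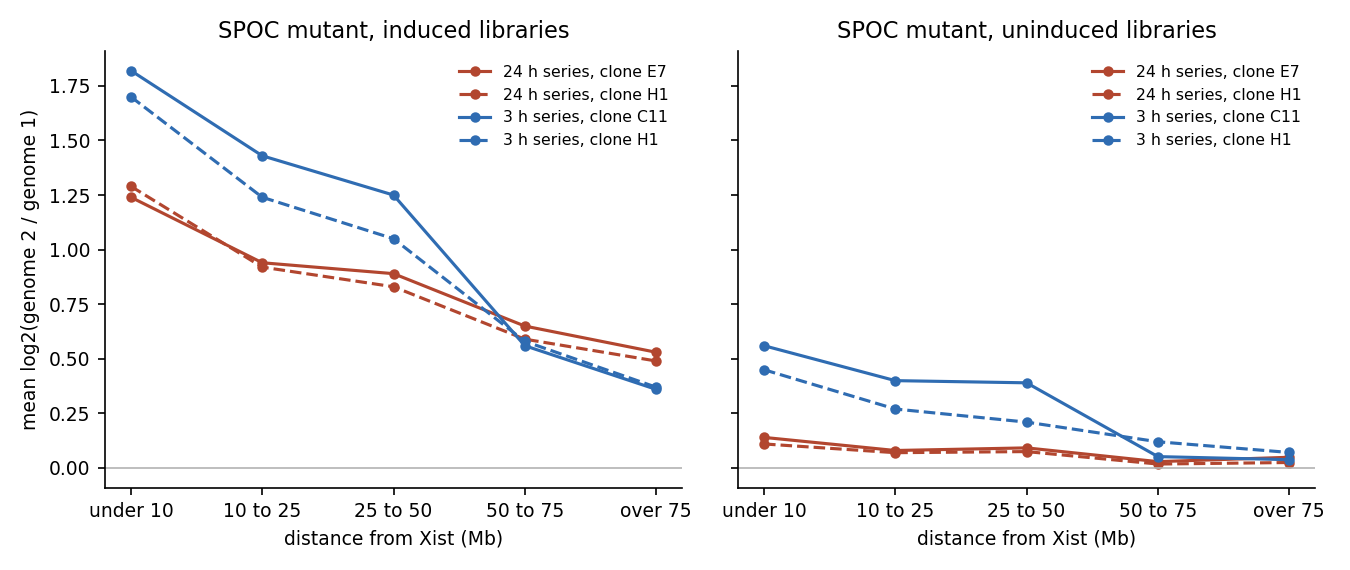
Mean log2 ratio of genome 2 over genome 1 (y axis) in 5 classes of distance from Xist in Mb (x axis), 1 line per SPOC library, induced on the left and uninduced on the right. The induced 3 h libraries start at 1.82 and 1.70 within 10 Mb and end at 0.36 and 0.37 beyond 75 Mb, while the induced 24 h libraries start at 1.24 and 1.29 and end at 0.53 and 0.49.

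Compared directly, without subtracting the uninduced libraries, the induced libraries of the 2 series differed in 128 windows (36.3%; limma after subtracting each library's median window, a comparison added after the data were seen), 64 of them higher and 64 lower at 24 h. The lower windows numbered 23 of 40 within 10 Mb, 25 of 60 from 10 to 25 Mb and 16 of 97 from 25 to 50 Mb. The higher windows numbered 19 of 75 from 50 to 75 Mb and 45 of 81 beyond 75 Mb. Without centring, 49 windows (13.9%) differed, 3 higher and 46 lower at 24 h, with a median difference of -0.16 over all windows, so the even split is relative to the median window. Between the uninduced libraries of the 2 series, 8 windows differed (2.27%), 2 higher and 6 lower at 24 h, and without centring 4 did (1.13%), 1 higher and 3 lower. Since the series were processed apart, a difference between series in 1 state cannot be told apart from a difference of handling. The induced count was 63 without E7, 80 without H1 of the 24 h series, 57 without C11 and 29 with clone H1 alone.

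The next comparison asks whether windows moved relative to the rest of the chromosome, so the median window of each library was first subtracted from that library, here called centring. Of 353 windows, 1 (0.283%) passed for the 24 h minus 3 h difference, with 52 at an unadjusted p under 0.05, against 180 windows (51%) that departed from the median change at 24 h and 198 (56.1%) at 3 h. With the 2 libraries of a clone treated as a pair, 2 windows passed (0.567%). On the centred signal of genome 2 alone, which was added after the data were seen, 26 windows (7.37%) passed, 20 higher and 6 lower, and on that of genome 1 alone none did (0%; 18 at an unadjusted p under 0.05). The clones of the 2 times did not overlap in 52.7% of windows. Both 24 h clones lay above both 3 h clones in 89 windows (25.2%) and below both in 97 (27.5%). Beyond 75 Mb, 45 of 81 windows had the 24 h clones above and 2 below, and within 10 Mb, 1 of 40 had them above and 20 below.

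The window that passed lies 96.3 Mb from Xist, at X:7000001-7250000 of mm10, and holds Ccnb3, Akap4 and Clcn5. Ccnb3 encodes cyclin B3, which acts in meiosis, Akap4 an anchoring protein of the sperm tail, and Clcn5 a chloride and proton exchanger of endosomes. Genome 2 held 72.8% of the signal there in the induced 24 h library of E7 and 71.7% in that of H1, against 53.5% and 49.3% in their uninduced libraries. It held 60.5% in the induced 3 h library of C11 and 63.7% in that of H1, against 52.3% and 55.8% in their uninduced libraries. The change was 1.21 and 1.37 at 24 h, against 0.48 and 0.47 at 3 h. Relative to the median window it was 0.50 and 0.67 at 24 h, above the median, against -0.24 and -0.20 at 3 h, below it. The difference between times was 0.81 ± 0.17 (SE, limma adjusted p = 0.0496). Leaving out any single clone left the difference at 0.73 to 0.89 but lost the call (adjusted p = 0.054 to 0.232), and the difference turned to -0.37 when the states were read from the titles.

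The windows around it moved the same way, without passing. All 11 windows from position 6500001 to 9250000 had a positive difference, a stretch chosen after its values were seen. In WT the difference was also positive in each of these windows, from 0.15 to 0.85. In the Spen clones it had both signs. The stretch lies beyond 75 Mb, where 45 of 81 windows had both 24 h SPOC clones above both 3 h clones and 2 had them below. A positive difference is therefore not particular to this stretch or to SPOC. The adjoining window of Usp27x, a deubiquitinase gene, differed by 0.58 ± 0.18 (adjusted p = 0.143). The window of Slc38a5, an amino acid transporter, and 4 Ssxb genes, a germline family, differed by 0.71 ± 0.17 (adjusted p = 0.0696). It passed with the clones paired (adjusted p = 0.0129). Between them, the gene-dense windows of Foxp3 and Syp, of Gata1 and Hdac6, and of Suv39h1 and Porcn differed by 0.23, 0.25 and 0.024. In the Foxp3 window, which holds 12 genes, the change itself was 0.81 at 24 h and 0.57 at 3 h. In the windows of Gata1 and of Suv39h1 the change was smaller, at 0.39 and 0.20 at 24 h against 0.13 and 0.17 at 3 h.

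The promoters of the genes in the window that passed, and of Usp27x next to it, are given because these genes lie in 1 stretch and yet differ in CG content, the feature that marks promoters open to Polycomb binding in stem cells. The sequences are from RefSeq on GRCm38.p6, the assembly also called mm10, in the direction of transcription, from 250 bases before to 50 bases after the start, with each CG in capitals. Ccnb3 is at X:7041570-7041869 on the minus strand, Akap4 at X:7067265-7067564 on the plus strand, Clcn5 at X:7188665-7188964 on the minus strand and Usp27x at X:7375781-7376080 on the minus strand.
Ccnb3: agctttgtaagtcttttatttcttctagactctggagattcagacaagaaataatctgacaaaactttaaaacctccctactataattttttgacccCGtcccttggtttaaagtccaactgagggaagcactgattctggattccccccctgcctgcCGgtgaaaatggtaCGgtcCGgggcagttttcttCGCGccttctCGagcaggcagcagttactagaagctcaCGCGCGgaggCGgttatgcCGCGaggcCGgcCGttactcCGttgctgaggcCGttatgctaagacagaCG
Akap4: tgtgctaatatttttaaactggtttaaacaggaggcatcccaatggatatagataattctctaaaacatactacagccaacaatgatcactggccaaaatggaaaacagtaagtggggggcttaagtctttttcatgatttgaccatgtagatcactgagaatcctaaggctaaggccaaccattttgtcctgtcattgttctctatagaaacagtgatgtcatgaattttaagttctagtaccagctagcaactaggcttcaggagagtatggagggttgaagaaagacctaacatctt
Clcn5: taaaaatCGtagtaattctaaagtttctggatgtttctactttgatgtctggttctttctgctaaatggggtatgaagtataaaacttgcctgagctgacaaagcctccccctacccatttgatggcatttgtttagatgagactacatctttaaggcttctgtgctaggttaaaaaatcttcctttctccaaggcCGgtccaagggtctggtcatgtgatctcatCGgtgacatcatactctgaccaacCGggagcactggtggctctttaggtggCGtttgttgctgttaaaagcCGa
Usp27x: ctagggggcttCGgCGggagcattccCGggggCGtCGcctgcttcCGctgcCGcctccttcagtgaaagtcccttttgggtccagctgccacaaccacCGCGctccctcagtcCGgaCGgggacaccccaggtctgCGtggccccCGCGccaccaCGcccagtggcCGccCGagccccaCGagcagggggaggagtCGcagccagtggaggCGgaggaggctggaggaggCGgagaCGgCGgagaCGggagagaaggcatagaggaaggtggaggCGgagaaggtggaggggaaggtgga

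These promoters hold 18, 0, 6 and 25 CG pairs, and a further Clcn5 start in the Usp27x window has 19. Of 1223 promoters on the X chromosome in the RefSeq table, 26.2% hold at least 15 CG, and the median is 7. A 250 kb window does not resolve a promoter, so the signal cannot be assigned to any of these sequences. Over the allelic windows, which reach up to Xist, the 102 windows with a CG-rich promoter changed by 0.81 at 24 h and 0.77 at 3 h. The 133 windows with other promoters only changed by 0.71 at each time, and the 118 windows without a promoter by 0.66 and 0.68.

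No other window among the highest differences passed. The next were windows without protein-coding genes from 39000001 (0.74) and 40000001 (0.63), then those of Actrt1 (0.60), an actin-related gene of the testis, of Spin2f and its Btbd35f neighbours (0.57) and of Arhgap36 (0.51), with adjusted p-values from 0.143 to 0.368. None of the lowest passed either. They were the windows of 4932429P05Rik (-0.57), Gm52432 (-0.54), Cldn34d (-0.48), Btbd35f10 (-0.47), 4930595M18Rik (-0.47) and Stard8 with Efnb1 (-0.44), and 2 without genes from 79750001 (-0.48) and 90500001 (-0.46), with adjusted p-values from 0.124 to 0.379. Efnb1 encodes ephrin-B1, a membrane-bound guidance ligand, and its window, 4.35 Mb from Xist, changed by 0.66 and 0.85 at 24 h, against 1.10 and 1.27 at 3 h. In the Btbd35f10 window, a multicopy family in which reads may be split among copies, the change was -0.20 and -0.33 at 24 h, against 0.21 and 0.18 at 3 h.

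**Figure D4:**
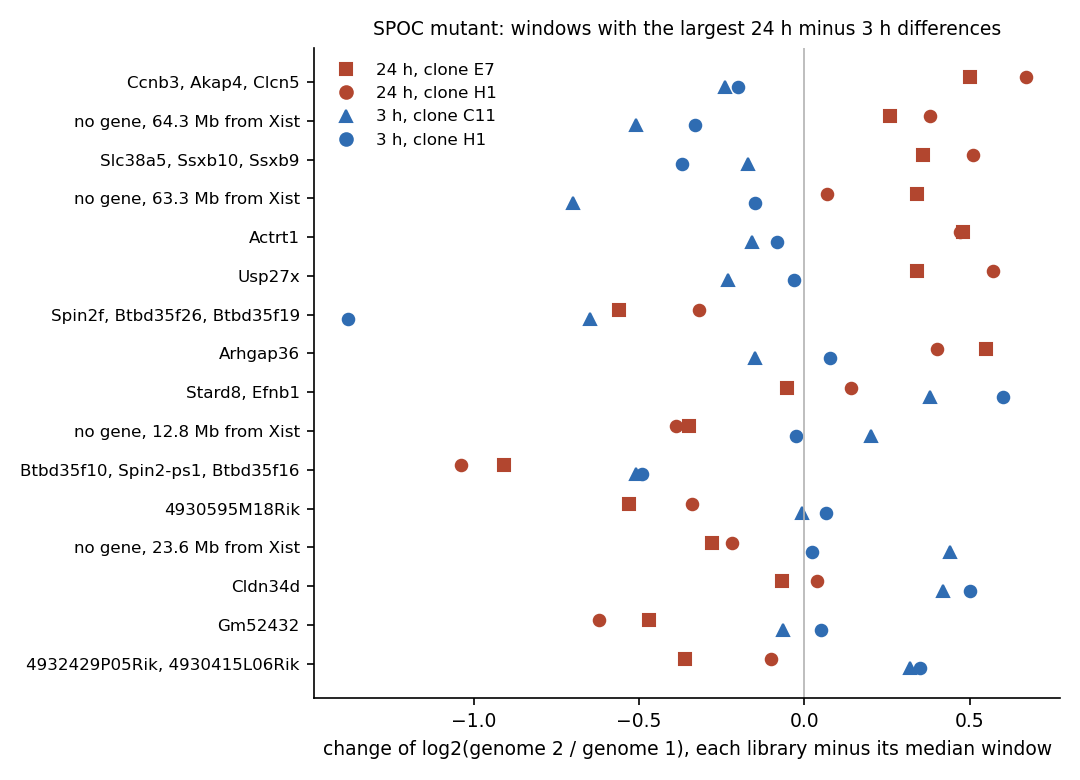
Change on induction of the 8 windows with the highest and the 8 with the lowest 24 h minus 3 h difference (y axis, named by protein-coding genes), each library minus its median window (x axis, log2), 1 point per clone and time. The 24 h points lie on 1 side of both 3 h points in each window, which is how the windows were chosen. Only the window of Ccnb3, Akap4 and Clcn5 passed the test.

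In lists of genes grouped by role, no window passed for the difference between times. The counts below stand beside 285 and 268 of all 353 windows (80.7% and 75.9%) called higher at 24 h and at 3 h. Of 29 windows with housekeeping genes, 26 were called higher at 24 h and 20 at 3 h, with median changes of 0.62 and 0.65. The 12 windows with developmental transcription factors were called in 12 cases at 24 h and in 10 at 3 h, with medians of 0.71 and 0.58. The 16 windows with chromatin regulators were called in 13 and 11 cases, with medians of 0.53 and 0.52. The 13 windows with long neural and muscle genes were called in all cases at both times, with medians of 0.98 and 1.08, against 0.70 and 0.71 over all windows. The window of Dmd, the dystrophin gene, changed by 1.22 and 1.19 at 24 h, against 1.34 and 1.16 at 3 h. The 40 windows with multicopy germline genes were called in 21 and 18 cases, with medians of 0.43 and 0.32.

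The 5 windows with genes known to escape X inactivation in mouse had a median change of 0.44 at 24 h and 0.16 at 3 h, against 0.70 and 0.71 over all windows, and 3 and 2 of them were called. Kdm6a, a histone H3K27 demethylase that escapes, had 0.061 and 0.056 at 24 h, against -0.20 and 0.053 at 3 h. Ddx3x, an RNA helicase that escapes, had 0.23 and 0.36 at 24 h, against 0.055 and 0.24 at 3 h. Usp9x, a deubiquitinase gene next to Ddx3x, had 0.35 and 0.27 at 24 h, against 0.21 and -0.033 at 3 h. None of these 3 windows passed at either time. Eif2s3x, a translation factor gene that escapes and lies 9.35 Mb from Xist, was called at both times, with 0.91 and 0.70 at 24 h, against 0.54 and 0.67 at 3 h. The windows of Kdm6a, Ddx3x and the escape gene Shroom4 lie 85.3, 90.1 and 96.8 Mb away. Shroom4 was called at both times, with 0.78 and 1.03 at 24 h, against 0.48 and 0.53 at 3 h. It lay above the means beyond 75 Mb of 0.47 at 24 h and 0.31 at 3 h, whereas Kdm6a and Ddx3x lay below them. Eif2s3x lay below the means within 10 Mb of 1.14 and 1.25. The escape gene Utp14a, 55.1 Mb away, averaged 0.44 and 0.16, against 0.59 and 0.48 from 50 to 75 Mb. Escape was not tested apart from distance. For reference, the window of Hprt, a purine salvage enzyme that is silenced, had 0.93 and 1.03 at 24 h, against 1.03 and 0.92 at 3 h, and that of Araf, a kinase gene in a gene-dense cluster, had 0.61 and 0.45 against 0.53 and 0.26.

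In the SPOC clones the most gene-dense windows had the lowest mean change at both times. The 124 windows without protein-coding genes changed by 0.67 ± 0.0494 at 24 h and 0.70 ± 0.034 at 3 h, and the 13 windows with 8 or more genes by 0.63 ± 0.029 and 0.56 ± 0.0988 (SD, n = 2 each). In between, the 30 windows with 4 to 7 genes changed by 0.74 ± 0.0407 and 0.70 ± 0.00897, and 28 of them were called at 24 h against 22 at 3 h. Of the 13 densest windows, 11 (84.6%) were called at 24 h and 9 (69.2%) at 3 h, against 80.7% and 75.9% of all windows. At 24 h the clones of the densest windows (0.65 and 0.61) overlapped those of the windows without genes (0.70 and 0.63). Spearman's rho of the change with the fraction of each window that lies in genes was 0.36 in E7 and 0.42 in H1 at 24 h, against 0.28 in C11 and 0.29 in H1 at 3 h. With the number of genes, rho was 0.03 and 0.14 at 24 h, against 0.011 and 0.0054 at 3 h. The 13 densest windows changed by 0.25 at 24 h and 0.28 at 3 h in the Spen clones, and by 1.07 and 0.95 in WT.

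Set against the other genotypes, the difference between times was tested as a difference of differences. SPOC minus Spen passed in 39 of 353 windows (11%), 17 higher and 22 lower (limma, centred), and in 55 (15.6%) with the clones paired. Without centring it passed in 0 windows (0%; 48 at an unadjusted p under 0.05), and in 16 (4.53%), all lower, with the clones paired, so the calls below are relative to each library's median window. SPOC minus WT passed in 0 windows (0%), with 55 at an unadjusted p under 0.05 and, with clones paired, 0 windows and 64 at an unadjusted p under 0.05. The 3 h WT group has 1 pair of libraries, so its spread is assumed to be that of the other groups. The 3 highest windows against Spen were those of Ccnb3 (0.98 ± 0.25, adjusted p = 0.0299), of Klhl15, Fam90a1b and Apoo (0.95 ± 0.20, adjusted p = 0.0205) and of Pgrmc1 and Akap17b (0.87 ± 0.25, adjusted p = 0.0364). Without centring the adjusted p-values of these 3 were 0.301, 0.343 and 0.433. In the Klhl15 window the change relative to the median was 0.91 and 0.84 at 24 h against 0.78 and 0.89 at 3 h in the SPOC clones. In the Spen clones it was -0.18 and -0.49 at 24 h, against 0.70 and 0.44 at 3 h. Between these 2 genotypes the difference in this window therefore lay in the Spen clones, while the SPOC clones of the 2 times overlapped. WT was also lower at 24 h there, with a mean of 0.50 (n = 3) against 1.03 at 3 h (n = 1). In the Ccnb3 window the Spen clones had -0.13 and -0.20 at 24 h, against -0.058 and 0.067 at 3 h. Between these 2 genotypes the difference there lay in the SPOC clones. WT averaged 0.25 at 24 h (n = 3) against -0.10 at 3 h (n = 1), the same sign as in SPOC. The SPOC minus WT difference there was 0.46. This window also had the highest SPOC difference, so its rank against Spen is not independent of that. The 3 lowest were windows without genes from 66250001 (-1.0 ± 0.22) and 97750001 (-0.90 ± 0.23) and that of 4932429P05Rik (-0.91 ± 0.22). The count of 39 fell to 0 without SPOC clone E7, H1 at 24 h or C11, or without Spen clone C3 at 3 h, and was 2 without Spen clone D4 and 1 without Spen clone C4.

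The profiles of the SPOC clones resembled each other more within a time than across times. Spearman's rho of the changes over 353 windows was 0.87 between E7 and H1 at 24 h and 0.87 between C11 and H1 at 3 h. It was 0.77 between the 24 h and 3 h profiles of the same clone H1, and 0.74 to 0.78 between different clones across times. Between clone H1 at 24 h and itself at 3 h, the agreement was therefore no closer than between different clones of 1 time. The 24 h SPOC profiles correlated at 0.81 and 0.80 with the WT profile at 3 h, and at 0.68 to 0.76 with the WT profiles at 24 h. They correlated at 0.38 to 0.56 with those of Spen clones at 24 h, and at 0.70 to 0.73 with those of Spen clones at 3 h. The 3 h SPOC profiles correlated at 0.80 to 0.82 with those of Spen clones at 3 h, and at 0.84 and 0.87 with the WT profile at 3 h. These values describe windows that share depth and mappability within a library.

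The total signal of all reads reaches the windows past Xist that the allelic files do not cover. After centring, the change differed between times in 127 of 669 windows (19%; 39 higher and 88 lower at 24 h), and in 193 (28.8%) with clones paired. Of the 267 windows past Xist, 16 were higher and 66 lower, and of the 402 windows up to Xist, 23 were higher and 22 lower. On the far side of Xist, lower windows numbered 20 of 40 within 10 Mb, 34 of 59 from 10 to 25 Mb and 12 of 100 from 25 to 50 Mb, with mean differences of -0.24, -0.32 and -0.032. Before Xist they numbered 3 of 40 within 10 Mb, 14 of 60 from 10 to 25 Mb and 5 of 100 from 25 to 50 Mb. Higher windows numbered 15 of 102 beyond 75 Mb and 6 of 100 from 50 to 75 Mb before Xist, and 6 of 100 from 25 to 50 Mb and 10 of 68 beyond 50 Mb past it, with 2 more before Xist within 50 Mb. From 10 to 25 Mb past Xist the mean centred change was -0.35 in E7 and -0.33 in H1 at 24 h, against -0.032 in C11 and -0.0047 in H1 at 3 h, with the clones of the times well apart. The windows of Usp27x (0.62 ± 0.11) and Ccnb3 (0.46 ± 0.078, limma adjusted p = 0.00556) were again among the higher. All reads include the reads of genome 1 and of genome 2 from the same libraries, so this is no independent measurement. SPOC minus WT passed in 0 of 669 windows (0%; 87 at an unadjusted p under 0.05) and SPOC minus Spen in 85 (12.7%), or in 208 (31.1%) with clones paired. The count of 127 was 5 without E7, 14 and 0 without clone H1 at 24 h and at 3 h, and 63 without C11.

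**Figure D5:**
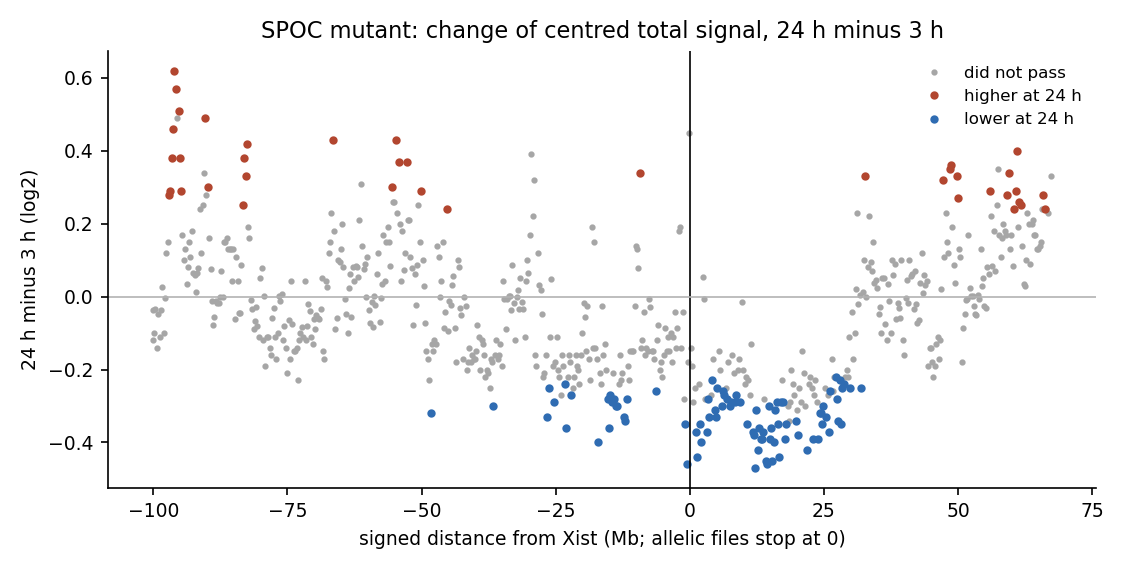
Difference between the 24 h and the 3 h change of the centred total signal (y axis, log2) in 669 windows against signed distance from Xist in Mb (x axis), with windows that passed at adjusted p of 0.05 in colour. Of the windows past Xist, 66 were lower at 24 h and 16 higher, the lower ones mostly within 25 Mb.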

How the data were processed

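The deposited values are a coverage signal per 250 kb window of chromosome X, normalised by the authors with a factor that is not stated, for all reads and per allele. Per the submitters' processing notes, Bowtie2 2.2.6, Picard and bedtools were used, and the build is mm10, with the role of each tool not stated. Total depth is unknown. If the smallest value stands for 1 fragment, an allele of the median window held 347 to 875 fragments in the SPOC libraries, a counting error of 0.15 to 0.10 on a log2 change. The signal of chromosome X summed to 116006 to 231799 per SPOC library and 179506 to 189684 per input. Ratios were log2 of genome 2 over genome 1 with a pseudocount of 1% of the median window on both alleles, over 353 allelic windows (both alleles at least 10% of the median window) and 669 of total signal. A single limma 3.58.1 fit (R 4.3.3) of 24 libraries in group means left 12 residual degrees of freedom, and the script was tested on simulated data. Figures and tables used Python 3.11.15, numpy 2.4.6, pandas 2.3.3 and matplotlib 3.10.9. The 2 libraries of a clone form a pair because they are the same cell line, and their deviations from the group means correlated at 0.14 in the SPOC clones at 24 h and 0.30 at 3 h. Windows were named by rule: the 8 highest and 8 lowest 24 h minus 3 h differences in which the clones of the times did not overlap, the 5 largest changes at each time, the Xist window, the ends of 7 gene lists, 10 fixed genes, and the 3 highest and 3 lowest differences from Spen. Members and lists were chosen with earlier results of these data known. Alternatives covered states, pseudocount, filter, libraries, clones, centring, moderation and input. The Drosophila spike-in was not used.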

Additional observations from a re-analysis of the deposited data

Results flagged for a closer look

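The items below were picked out because the effect of induction differed between the 2 times or, for the last, had opposite signs. They are given as values only. Relative to each library's median window, the SPOC change differed between 24 h and 3 h in 1 window, that of Ccnb3, Akap4 and Clcn5, by 0.81 (limma). The same difference of times differed between SPOC and Spen clones in 39 windows after centring and in 0 without it. Among them were that of Ccnb3, Akap4 and Clcn5 by 0.98, that of Klhl15, Fam90a1b and Apoo by 0.95 and that of Pgrmc1 and Akap17b by 0.87. On the lower side were the windows from 66250001 by -1.0, from 89750001 by -0.91 and from 97750001 by -0.90.

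In the total signal, 127 windows differed between the times in the SPOC clones, and 85 differed between SPOC and Spen in that difference. In the window of Btbd35f10, Spin2-ps1 and Btbd35f16, every 24 h clone fell on induction and every 3 h clone rose, before centring, with a 24 h minus 3 h difference of -0.46. It was picked for the opposite signs, which were not tested as such, and in the centred limma fit it did not pass (adjusted p = 0.379).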

How the results depend on the processing

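Reading the 24 h states from the titles had the largest effect. The 285 windows called at 24 h then all fell, with a median change of -0.70 and changes of -1.76, -1.63, -1.61, -1.61, -1.58 and -1.29 in the windows of Tsga8, Msn, Eda, Fthl17a, Klhl15 and Ccnb3. The difference of the medians between times was -1.42, and 229 windows passed for the centred difference, 312 for the uncentred one, 194 for SPOC minus Spen, 503 for total signal and 247 for the induced libraries. The Ccnb3 difference was -0.37, those from Spen were -0.19 (Ccnb3), -0.80 (Klhl15) and 0.055 (window from 66250001), and the 24 h minus 3 h differences of rho were 1.27 for distance (0.27 with the file names), -0.091 for gene number and -0.67 for gene cover, with -1.61 for near minus far (-0.27 with the file names). Differences that had not passed also changed sign, to -0.16, -0.36, -0.32, -0.44, 0.56, 0.016, 1.47, 0.41 and 0.28 in the windows of Slc38a5, Actrt1, Usp27x, Arhgap36, Gm52432, from 79750001, of Btbd35f10, of 4930595M18Rik and from 90500001.

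The single centred call varied with the setting. It became 2 windows with a 5% pseudocount, a 30% filter, mean centring, an intensity trend, or the replicate block (also with changes divided by their SD), and 0 with a 0.1% pseudocount, no filter, the 8 SPOC libraries alone or clone H1 alone. Settings added after the data were seen gave 17 windows with each 24 h library's own input subtracted, 26 on genome 2 alone, 0 on genome 1 alone, 128 between induced and 8 between uninduced libraries. Leaving out 1 clone gave 0 to 1 windows for it, 208 to 283 for the 24 h change, 208 to 266 for the 3 h change, 0 to 58 for SPOC minus Spen, 0 to 63 for total signal and 57 to 134 for the induced libraries. The centred window left in some of these settings was not that of Ccnb3, whose call was lost whichever SPOC clone was left out. For a left-out clone, the remaining one is assumed to vary like the other groups. SPOC minus Spen gave 13 windows without a filter and 0 with clone H1 alone, the induced libraries gave 29 with H1 alone, and the replicate block gave 193 windows for total signal and 302 and 290 for the 24 h and 3 h changes. The 24 h median was 0.67 with a 5% pseudocount or no filter and 0.73 with a 30% filter. Subtracting a mean input left the call unchanged, since it cancels in a change. Mean centring was not run on uncentred values, which it cannot change. Of 472 checks on 34 single-window values, 377 kept direction and call, 53 lost the call, 9 gained it, 14 moved and 19 reversed, all 19 with the states as titled.

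The counting error of 0.10 to 0.15 is that of a window's log2 change and rests on the assumed fragment unit. The median residual SD of 0.11 is that of a centred ratio, not of a change, so these values are not on the same scale. How far depth limits single windows was not tested.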

Other observations

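The uninduced 3 h library of clone C11 had a step along the chromosome. Its median log2 ratio was 0.073 in the 160 windows up to 55 Mb and 0.42 in the 193 windows past it, a step of 0.35, against 0.13 in the uninduced 3 h library of H1 and 0.018 and 0.036 in the uninduced 24 h libraries of E7 and H1. The position was chosen after the profile was seen. C11 also had the lowest total signal of the SPOC libraries, at 116006.

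Among the induced libraries compared directly, the strongest windows on the lower side, after centring, were that of Hdac8, at -0.94 (limma adjusted p = 1.72e-05), and the 2 windows that follow it towards Xist, that of Phka1, Gm9112 and Dmrtc1b at -0.89 (adjusted p = 1.72e-05) and that of Dmrtc1c1 and Dmrtc1c2 at -0.89 (adjusted p = 2.03e-06). The strongest on the higher side was that of Ccnb3, at 0.83. Between the uninduced libraries, the windows of Hdac8, Phka1 and Dmrtc1c1 were also lower in the 24 h series. They differed there by -0.54, -0.55 and -0.65 (limma adjusted p = 0.026, 0.0157 and 0.000335).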
